A study of Mus musculus with 12 samples.

Results

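Cells exposed to hypochlorous acid (HOCl) at 100 µM were compared with cells given the same salt solution, HBSS, without HOCl. All genes with a value of at least 1 FPKM (fragments per length of transcript and per depth of library) in at least 3 of the 6 libraries of these groups were taken, which gave 11558 of the 28977 gene IDs in the table. The cells were J774A.1, a mouse macrophage-like line. HBSS served as the vehicle (0 µM) and as the control, and HOCl at 100 µM was dissolved in it. Exposure lasted 1 h, and the cells then stood in full medium for 24 h before RNA was taken, so every level is one from after that time in medium. Each group had 3 mRNA libraries of 12 in the series. A group at 20 µM HOCl, handled in the same way, is used for the spread and for values beside the 100 µM ones, and a group in cell media is used only where it is named. Nothing in the labels states that a group's 3 libraries came from separate cultures, so the p-values reflect only the spread between these libraries, which may be technical. The series was run at lethal and sublethal doses, without a label for which is which, and its title is about mitophagy genes.

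HOCl is the oxidant that neutrophils and some macrophages make from hydrogen peroxide and chloride with the enzyme myeloperoxidase. It reacts fastest with thiols and thioethers, such as those of glutathione, cysteine and methionine, and forms chloramines with amines. Cells answer thiol oxidation through the factor NRF2, which raises enzymes that make or use glutathione, thioredoxin and NADPH, and they answer amino acid shortage and misfolded protein through the factors ATF4 and CHOP. Macrophages also hold a standing set of interferon-induced antiviral genes, many of which carry the interferon-stimulated response element in their promoters.

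The 100 µM libraries differed from the HBSS libraries by small amounts in many genes. Of the 11558 genes, 5640 were higher and 5918 lower, and the median log2 difference was −0.005 (all differences are on the scale of log2(FPKM + 1), 100 µM minus HBSS). Only 14 genes were higher and 24 lower by at least 1 on that scale. In 1955 genes (16.9%) every 100 µM library lay above every HBSS library, and in 2056 genes (17.8%) every one lay below, so groups without overlap made up 34.7% of all genes. By limma with Benjamini-Hochberg adjustment over all 11558 genes, fitted with the 20 µM libraries for a shared spread, 63 genes (0.545%) passed an adjusted p of 0.05. Of these, 26 (0.225%) were higher and 37 (0.32%) lower, and none of them had overlapping groups. The counts include 6 genes that passed the level filter through 1 group alone, which by itself fixed their direction and lack of overlap. Rose and fell are used only for these 63. Where 2 values follow a gene as mean ± SD (n = 3 each), the first is HBSS and the second 100 µM HOCl.

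The calls lay close to the threshold, with adjusted p between 0.0431 and 0.0491, while 3820 genes (33.1%) had an unadjusted p under 0.05. That 33.1% is the share to set beside each count of list members at an unadjusted p under 0.05 given below. Their number rested on single libraries: it was 0 by limma without HBSS replicate 1 or 2, HOCl 20 µM replicate 1 or HOCl 100 µM replicate 2 or 3 (2225 to 3723 genes at an unadjusted p under 0.05), 1 without HBSS replicate 3 or HOCl 20 µM replicate 2, 11 without HOCl 20 µM replicate 3, and 2696 without HOCl 100 µM replicate 1. It was 2 with the 6 libraries alone and 0 with all 12 (899 at an unadjusted p under 0.05), and 792 by limma-voom on reads recovered from the FPKM values. No call changed sign in any of the 27 alternatives that held the gene. As none of these genes had overlapping groups, leaving out a library, another pseudocount or library weights could not turn a sign. HOCl 100 µM replicate 1 was the closest of its group to each HBSS library. The reads behind the FPKM values ran from 19880581 to 21408518 in HBSS and from 17736499 to 18811910 at 100 µM, ranges that do not overlap, and the part of depth in the results was not tested. All 10 macrophage markers were present, summing to 3412 to 3730 FPKM in HBSS and 3934 to 4463 FPKM at 100 µM. No marker of lymphocytes, of fibroblasts and epithelium, or of red cells and endothelium reached 1 FPKM, and of 7 neutrophil markers measured only S100a8 did, with the marker sum at 10.3 to 13.1 FPKM in HBSS and 14.2 to 16.7 FPKM at 100 µM and Ltf at 0 throughout. In bulk RNA, fewer cells in a state and less RNA per cell cannot be told apart.

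**Figure D1:**
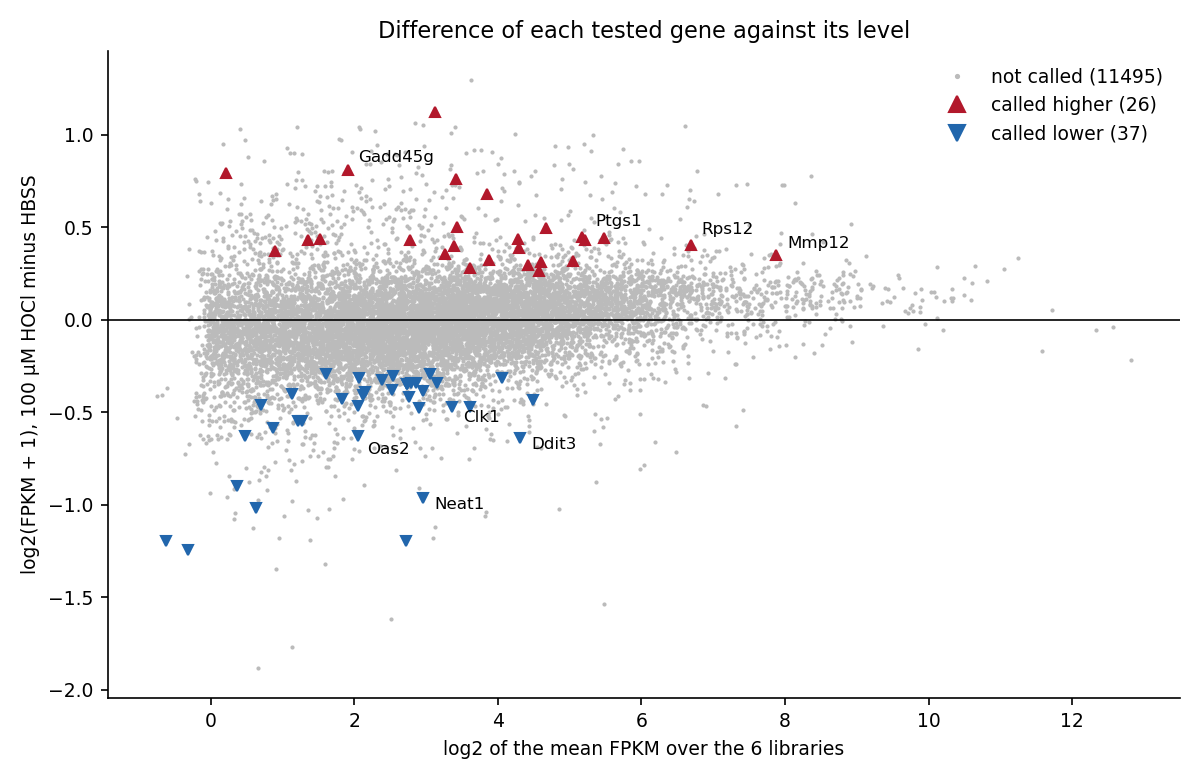
Each point is 1 of the 11558 tested genes, with the log2 of its mean FPKM over the 6 libraries on the x axis and the log2(FPKM + 1) difference, 100 µM HOCl minus HBSS, on the y axis. Red triangles are the 26 genes that rose and blue triangles the 37 that fell, and many uncalled genes (grey) lie as far from 0 as the called ones.

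Oas2 and Oas1g fell at 100 µM. They encode oligoadenylate synthetases, which sense double-stranded RNA and make the short adenylate chains that switch on RNase L. Oas2 stood at 4.84, 5.35 and 5.598 FPKM in HBSS and 3.15, 3.22 and 2.78 FPKM at 100 µM, a 1.72-fold lower mean (log2 difference −0.63, SE 0.077, adjusted p = 0.0431). Oas1g stood at 24.4, 27.1 and 26.2 FPKM in HBSS and 20.8, 17.8 and 18.1 FPKM at 100 µM, 1.37-fold lower (log2 difference −0.44, SE 0.066, adjusted p = 0.0432). In both genes the lowest HBSS library lay above the highest 100 µM library, and the 20 µM libraries stood at 4.43, 3.96 and 4.79 FPKM for Oas2 and 21.7, 22.3 and 23.1 FPKM for Oas1g.

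Stretches of 3 promoters are shown because these genes are known interferon targets and the letters of the interferon-stimulated response element can be read in them. It was searched as GAAANNGAA on both strands in RefSeq promoter windows of 300 bases (GRCm38.p6). The matches are in capitals in the following stretches, each of which runs 5′ to 3′ on the strand of the gene and ends 1 base before its start.
Oas1g: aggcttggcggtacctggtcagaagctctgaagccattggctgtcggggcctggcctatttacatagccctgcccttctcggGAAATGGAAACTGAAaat
Oas3: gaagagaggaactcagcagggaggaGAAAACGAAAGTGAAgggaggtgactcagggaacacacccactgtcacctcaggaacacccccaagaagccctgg
Ifi203: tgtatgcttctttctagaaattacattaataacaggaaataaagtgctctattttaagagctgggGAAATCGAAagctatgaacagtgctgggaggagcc
These lie at chr5:120887614-120887713, minus strand, for Oas1g, chr5:120777660-120777759, minus strand, for Oas3, and chr1:173942493-173942592, minus strand, for 1 of the 2 windows of Ifi203. The Oas1g and Oas3 runs each hold 2 overlapping matches, starting 18 and 12 bases before the start of Oas1g and 75 and 69 before that of Oas3, and the Ifi203 match starts 35 bases before. Of the 12 tested members of the list of oligoadenylate synthetases and RNA sensors with a window, 8 held the letters, as did 15 of 24 interferon-induced effectors and 9.76% of all 27025 genes with a window. Among called genes with a window, 7 of 22 that fell and 0 of 11 that rose held them. A match is a description of these letters, not a measured binding site.

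Of the 16 tested oligoadenylate synthetase and RNA sensor genes, 2 passed, both lower, and 14 were lower and 2 higher in mean. The groups did not overlap in 12, all lower, against 17.8% of all genes, and the median log2 difference was −0.16 against −0.005 over all genes. Oas3 stood at 13.3, 11.7 and 12.5 FPKM in HBSS and 10.2, 9.16 and 8.41 FPKM at 100 µM (log2 difference −0.40, SE 0.072, adjusted p = 0.0525), just short of the threshold. Oas1a, the most abundant of the family here, stood at 41.04, 42.9 and 43.6 FPKM in HBSS and 36.7, 36.8 and 37.7 FPKM at 100 µM (log2 difference −0.19, SE 0.042, adjusted p = 0.0564). Oas1b gave 1.68 ± 0.237 and 1.23 ± 0.163 FPKM (adjusted p = 0.115). Ddx58, the cytosolic RNA sensor RIG-I, gave 6.72 ± 0.128 and 5.58 ± 0.121 FPKM (adjusted p = 0.0599). The Oas1 genes are closely related neighbours, and how the counting split reads that match several of them is not given in the sources used here.

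Other interferon-induced genes were split in direction, and Ifi44 and Ifi203 fell. Ifi44, an interferon-induced protein linked to antiviral defence, stood at 4.86, 4.998 and 5.13 FPKM in HBSS and 3.05, 3.49 and 3.49 FPKM at 100 µM (log2 difference −0.47, SE 0.063, adjusted p = 0.0431). Ifi203, of the pyrin- and HIN-domain family of DNA-binding proteins, stood at 10.9, 9.71 and 9.65 FPKM in HBSS and 7.81, 7.63 and 7.71 FPKM at 100 µM (log2 difference −0.34, SE 0.051, adjusted p = 0.0432). Both had groups without overlap, and the SD of the 100 µM libraries of Ifi203 was 0.0872 FPKM. Of the 29 tested interferon-induced effectors, these 2 passed, and 17 were lower and 12 higher. The median was −0.05, and it turned to 0.04 with the GC trend removed. Ifit1 and Ifit2, which bind foreign RNA, had overlapping groups at 0.951 ± 0.173 and 1.17 ± 0.187 FPKM and 3.91 ± 0.298 and 3.797 ± 0.243 FPKM. Sp100, a nuclear body protein, stood at 8.39, 8.201 and 8.16 FPKM in HBSS and 6.902, 7.13 and 6.51 FPKM at 100 µM (adjusted p = 0.0541). Parp14, an ADP-ribosyltransferase, stood at 6.34, 7.05 and 7.44 FPKM in HBSS and 5.89, 5.85 and 5.33 FPKM at 100 µM (adjusted p = 0.0694).

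None of the 17 tested interferon signalling genes passed (5 at an unadjusted p under 0.05). Irf7, the factor that amplifies the interferon response, stood at 7.84 ± 0.571 and 6.06 ± 0.178 FPKM (adjusted p = 0.0863). Irf9, the DNA-binding subunit of the interferon-activated complex, stood at 7.37 ± 0.414 and 6.21 ± 0.371 FPKM (adjusted p = 0.0716). Irf8, a lineage factor of macrophages, lay the other way, at 25.9 ± 0.309 and 29.1 ± 0.625 FPKM (adjusted p = 0.0636). Ifnar1 and Ifnar2, the receptor chains, stood at 14.2 ± 0.244 and 12.98 ± 0.555 FPKM and 16.6 ± 1.13 and 16.7 ± 0.712 FPKM. H2-T23, a nonclassical MHC class I gene whose product is read by natural killer cell receptors, fell from 8.18, 7.61 and 7.98 FPKM in HBSS to 5.19, 5.95 and 5.89 FPKM at 100 µM (log2 difference −0.42, SE 0.058, adjusted p = 0.0431). The classical class I genes H2-K1 and H2-D1 overlapped between groups, at 91.3 ± 1.63 and 87.1 ± 8.52 FPKM and 187 ± 5.78 and 196 ± 14.7 FPKM. Trim56, a ubiquitin ligase of antiviral sensing, fell, with 6.78, 6.28 and 6.91 FPKM in HBSS and 5.33, 4.74 and 4.58 FPKM at 100 µM (log2 difference −0.38, SE 0.062, adjusted p = 0.0491).

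**Figure D2:**
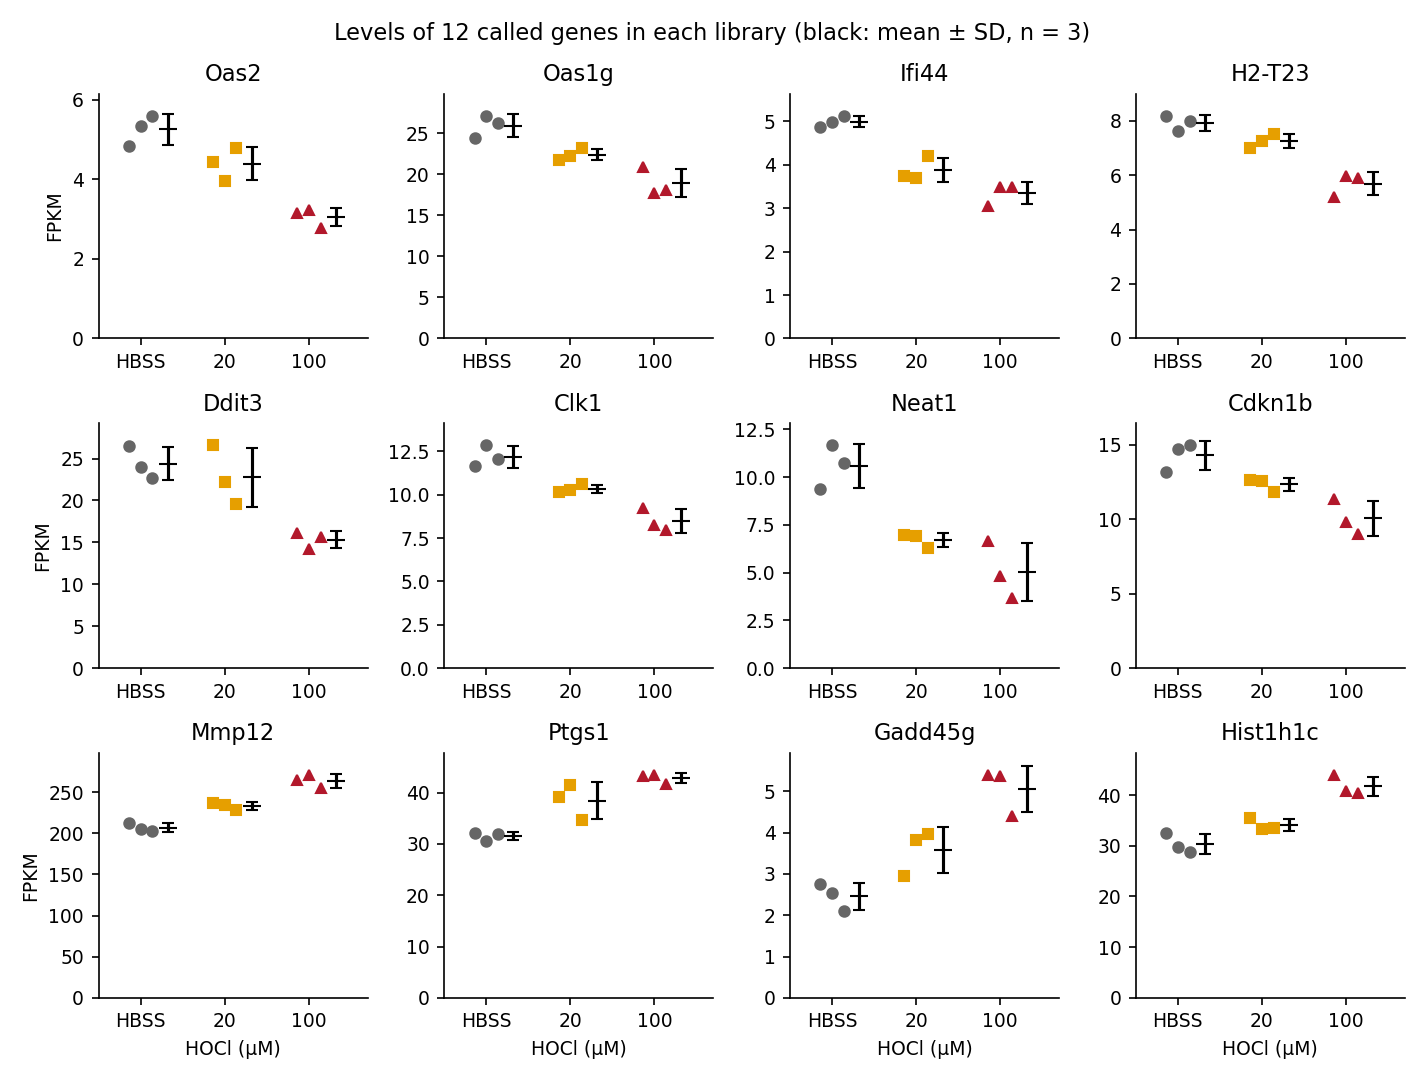
FPKM of 12 called genes in each of the 3 HBSS (grey circles), 3 HOCl 20 µM (orange squares) and 3 HOCl 100 µM libraries (red triangles), with the group mean and SD in black. In each panel every 100 µM library lies on 1 side of every HBSS library, as Oas2 does with 2.78 to 3.22 FPKM against 4.84 to 5.60 FPKM.

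The transcript of the stress factor CHOP fell at 100 µM. Its gene, Ddit3, which ATF4 turns on under amino acid shortage or protein misfolding, was 1.59-fold lower, with 26.5, 24.02 and 22.6 FPKM in HBSS and 16.1, 14.2 and 15.7 FPKM at 100 µM (log2 difference −0.64, SE 0.1, adjusted p = 0.0491). The lowest HBSS library lay above the highest 100 µM library, and the 20 µM libraries spread from 26.6 to 19.6 FPKM. Ddit3 was the only one of 26 tested ATF4 and CHOP targets to pass, but 24 of the 26 were lower and 2 higher. In 9 the groups did not overlap on the low side and in 1 on the high side, against 17.8% and 16.9% of all genes. The median was −0.17, and between −0.23 and −0.10 over the alternatives. HOCl 100 µM replicate 2 lay lowest over the list, at a median of −0.323 from the HBSS mean, against −0.0952 and −0.105 in replicates 1 and 3.

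Promoters of 3 of these targets are shown with the element that ATF4 and its partners bind, searched as TGATGNAA on both strands and given in capitals (TTGCATCA is a match on the other strand).
Slc7a11: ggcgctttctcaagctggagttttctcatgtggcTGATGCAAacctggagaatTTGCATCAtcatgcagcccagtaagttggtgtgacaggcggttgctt
Chac1: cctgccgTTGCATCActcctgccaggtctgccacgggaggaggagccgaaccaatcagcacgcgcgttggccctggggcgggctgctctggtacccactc
Nupr1: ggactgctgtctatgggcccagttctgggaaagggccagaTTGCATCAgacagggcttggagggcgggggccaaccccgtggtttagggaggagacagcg
The stretches are the 100 bases before the start of Slc7a11 (chr3:50443614-50443713, minus strand), 100 bases that begin 200 bases before that of Chac1 (chr2:119351042-119351141, plus strand) and 100 bases that begin 150 bases before that of Nupr1 (chr7:126625521-126625620, minus strand), in the GRCm38.p6 build. Slc7a11 holds 2 matches on opposite strands, and none overlaps another. Of 23 tested members with a window, 8 held the letters, against 4.51% of all genes. Among called genes with a window, 0 of 22 that fell and 2 of 11 that rose held them, and the 3 genes shown were not called.

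Chac1, an enzyme that breaks down glutathione, stood at 9.84, 14.1 and 16.2 FPKM in HBSS and 8.57, 7.03 and 9.22 FPKM at 100 µM (log2 difference −0.61, SE 0.16, adjusted p = 0.0675), with the HBSS libraries spread widely. Slc7a11, the cystine importer that feeds glutathione synthesis and a target of NRF2 as well, stood at 7.15, 7.25 and 7.65 FPKM in HBSS and 6.396, 5.69 and 5.87 FPKM at 100 µM (log2 difference −0.26, SE 0.053, adjusted p = 0.0564). With the exon length trend of each library removed, its difference was −0.09. Nupr1, a stress-induced chromatin protein named here after its values were seen, stood at 14.2, 11.9 and 11.2 FPKM in HBSS and 9.81, 8.79 and 11.04 FPKM at 100 µM (adjusted p = 0.101). Atf4 itself overlapped between groups, at 266, 214 and 224 FPKM in HBSS and 213, 192 and 223 FPKM at 100 µM (log2 difference −0.16, SE 0.088, adjusted p = 0.226). Cebpg, a dimer partner of ATF4, gave 19.9 ± 1.65 and 15.2 ± 1.66 FPKM (adjusted p = 0.0881). Slc7a1, an importer of arginine and lysine, gave 25.4 ± 1.81 and 20.7 ± 2.67 FPKM (adjusted p = 0.0875). None of the 20 aminoacyl-tRNA synthetase genes, which ATF4 also raises, passed, and their median was −0.06 (2 at an unadjusted p under 0.05).

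Chaperones of the endoplasmic reticulum mostly stood higher. None of 19 tested passed (7 at an unadjusted p under 0.05, against 33.1% of all genes). Of the 19, 15 were higher and 4 lower, with a median of 0.14 and of 0.05 after quantile normalization. Hspa5, the chaperone BiP, overlapped between groups at 246 ± 23.8 and 274 ± 21.8 FPKM, and so did Hsp90b1 at 271 ± 26.5 and 283 ± 7.13 FPKM. Sdf2l1, a partner of BiP, stood at 45.6, 61.9 and 59.4 FPKM in HBSS and 68.03, 81.1 and 74.2 FPKM at 100 µM (adjusted p = 0.0845). Dnajb11, another, stood at 38.6, 43.4 and 45.2 FPKM in HBSS and 46.97, 52.7 and 53.3 FPKM at 100 µM (adjusted p = 0.0758). In both genes the 100 µM libraries lay above all HBSS libraries, with HBSS replicate 1 the lowest.

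Most NRF2 targets were higher in mean at 100 µM, and no member passed. Among the 25 tested NRF2 targets, 0 passed by limma and 18 had an unadjusted p under 0.05. Of them, 19 were higher and 6 lower, with 16 free of overlap on the high side (against 16.9% of all genes) and 2 on the low side. Their median was 0.20, 0.18 with the length trend removed and 0.13 after quantile normalization, and 0.04 at 20 µM. Prdx1, the abundant cytosolic peroxiredoxin, stood at 489, 517 and 473 FPKM in HBSS and 571, 674 and 639 FPKM at 100 µM (log2 difference 0.35, SE 0.067, adjusted p = 0.0541). Hmox1, heme oxygenase, stood at 75.9, 90.6 and 95.03 FPKM in HBSS and 99.03, 129 and 111 FPKM at 100 µM (log2 difference 0.37, SE 0.15, adjusted p = 0.122), free of overlap but with a spread that left it far from the threshold. Gstm1, a glutathione transferase, gave 14.8 ± 0.194 and 18.5 ± 1.65 FPKM (adjusted p = 0.0564). Blvrb, a biliverdin reductase, gave 29.6 ± 1.55 and 38.3 ± 4.25 FPKM (adjusted p = 0.0608). A marker of the same response, Slc7a11, was lower, as given above.

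Most genes of the enzymes that remove peroxide and superoxide were higher in mean. Prdx1, Cat and Txnrd1 are in this list and among the NRF2 targets, so the counts of these lists are not separate. Of 23 tested peroxiredoxin, thioredoxin and superoxide genes, 0 passed by limma and 15 had an unadjusted p under 0.05; 20 were higher and 3 lower, and 13 were free of overlap on the high side and 1 on the low side (16.9% and 17.8% of all genes), with a median of 0.16. Sod1, the cytosolic superoxide dismutase, stood at 32.7, 36.9 and 33.3 FPKM in HBSS and 39.3, 47.1 and 44.7 FPKM at 100 µM (adjusted p = 0.0608). Sod2, the mitochondrial one, overlapped between groups at 23.5 ± 1.98 and 26.1 ± 1.11 FPKM. Txn2, mitochondrial thioredoxin, gave 28.1 ± 0.748 and 33.2 ± 2.23 FPKM (adjusted p = 0.0564). Prdx2, a cytosolic peroxiredoxin, gave 38.8 ± 2.08 and 46.97 ± 3.56 FPKM (adjusted p = 0.0629). Gpx4, which reduces lipid peroxides, gave 96.7 ± 4.17 and 114 ± 5.71 FPKM (adjusted p = 0.0564).

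Genes that supply NADPH mostly stood higher, and 1 glutathione transferase rose. The pentose phosphate and NADPH list shares members with the NRF2 targets, G6pdx and Taldo1 among them, so its counts repeat part of those above. Of 13 pentose phosphate and NADPH genes, none passed (7 at an unadjusted p under 0.05), 11 were higher and 2 lower, and the median was 0.19. G6pdx, the entry enzyme of the pathway, stood at 106, 116 and 116 FPKM in HBSS and 123, 131 and 131 FPKM at 100 µM (adjusted p = 0.0705). Taldo1, its transaldolase, stood at 178, 198 and 183 FPKM in HBSS and 206, 232 and 233 FPKM at 100 µM (adjusted p = 0.0636). The subunits of the enzyme that limits glutathione synthesis, Gclc and Gclm, overlapped between groups, at 22.3 ± 1.42 and 20.5 ± 1.38 FPKM and 11.5 ± 0.449 and 12.7 ± 1.09 FPKM. Mgst2, a microsomal transferase that can join glutathione to a leukotriene precursor, rose 1.52-fold, at 2.14, 1.82 and 2.12 FPKM in HBSS and 3.22, 3.01 and 2.997 FPKM at 100 µM (log2 difference 0.43, SE 0.073, adjusted p = 0.0491). Of the 17 glutathione genes it alone passed, at a low level. Mgst3, a related transferase, gave 15.5 ± 1.23 and 19.6 ± 1.87 FPKM (adjusted p = 0.0672). In iron and heme handling, Fth1, the ferritin heavy chain, stood at 1943, 1986 and 1811 FPKM in HBSS and 2081, 2459 and 2421 FPKM at 100 µM (adjusted p = 0.0672). Ireb2, which binds and regulates ferritin and transferrin receptor messages, stood at 14.4, 13.9 and 14.4 FPKM in HBSS and 12.6, 11.4 and 10.6 FPKM at 100 µM (adjusted p = 0.0598).

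Mmp12 and Ptgs1 were the only called genes in the lists of matrix proteases and of prostanoid and leukotriene synthesis. Mmp12, macrophage elastase, rose 1.27-fold, at 213, 205 and 202 FPKM in HBSS and 265, 271 and 255 FPKM at 100 µM (log2 difference 0.35, SE 0.041, adjusted p = 0.0431). It was among the most abundant called genes, and with the length trend removed its difference was 0.43. Mmp13, an interstitial collagenase, stood at 7.08, 6.72 and 7.39 FPKM in HBSS and 9.23, 10.7 and 9.74 FPKM at 100 µM (log2 difference 0.43, SE 0.083, adjusted p = 0.0541). Mmp8, another collagenase, stood at 5.34, 6.55 and 7.09 FPKM in HBSS and 8.53, 9.695 and 8.16 FPKM at 100 µM (adjusted p = 0.0672), while its 20 µM libraries stood at 7.69, 9.64 and 9.01 FPKM. Plaur, the urokinase receptor, gave 55.4 ± 2.88 and 66.9 ± 2.35 FPKM (adjusted p = 0.0541). Of 14 tested genes of this list, Mmp12 alone passed, 11 were higher and 3 lower, and the median was 0.20.

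Ptgs1, the constitutive cyclooxygenase that begins prostanoid synthesis, rose 1.36-fold, at 32.1, 30.6 and 31.9 FPKM in HBSS and 43.3, 43.4 and 41.6 FPKM at 100 µM (log2 difference 0.43, SE 0.063, adjusted p = 0.0432). The 20 µM libraries stood at 39.2, 41.5 and 34.6 FPKM. The groups lay far apart against their spread, and every 20 µM library lay between them. Ptgr1, a reductase that inactivates leukotrienes and reactive aldehydes, is in no list and was picked after its values were seen; it rose, at 28.9, 30.4 and 29.1 FPKM in HBSS and 34.7, 37.7 and 38.3 FPKM at 100 µM (log2 difference 0.32, SE 0.049, adjusted p = 0.0491). Alox5, the lipoxygenase that starts leukotriene synthesis, stood at 5.74, 5.99 and 5.18 FPKM in HBSS and 7.29, 7.61 and 7.41 FPKM at 100 µM (log2 difference 0.35, SE 0.063, adjusted p = 0.0525). Alox5ap, its membrane partner, stood at 35.03, 38.7 and 37.6 FPKM in HBSS and 41.7, 44.9 and 45.4 FPKM at 100 µM (adjusted p = 0.0577). Hpgds, a prostaglandin D synthase, lay lower, at 3.78 ± 0.591 and 2.74 ± 0.0696 FPKM (adjusted p = 0.0683). Pla2g4a, the phospholipase that frees arachidonate, stood at 54.4 ± 1.66 and 50.9 ± 0.986 FPKM (adjusted p = 0.167). Of the 12 tested genes of prostanoid and leukotriene synthesis, 6 were higher and 6 lower.

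Among chemokines and cytokines none of 20 passed (10 at an unadjusted p under 0.05), although 15 were higher and 5 lower and 7 were free of overlap, all high (16.9% of all genes), with a median of 0.14. Ccl7, which draws monocytes, stood at 70.7, 60.5 and 63.98 FPKM in HBSS and 79.04, 99.9 and 87.9 FPKM at 100 µM (log2 difference 0.44, SE 0.085, adjusted p = 0.0541). Ccl2, the main monocyte chemokine, overlapped at 419.6, 452 and 491 FPKM in HBSS and 476, 622 and 546 FPKM at 100 µM (adjusted p = 0.132), as did Ccl3 at 415 ± 39.9 and 423 ± 17.8 FPKM. Il1rn, the interleukin receptor antagonist, gave 2.94 ± 0.234 and 3.71 ± 0.259 FPKM (adjusted p = 0.069). Ccl9 gave 407 ± 26.1 and 487 ± 36.3 FPKM (adjusted p = 0.0702). Toll-like receptor genes leaned low, with 17 of 23 lower and a median of −0.12. None was called (9 at an unadjusted p under 0.05, against 33.1% of all genes). Ly96, the co-receptor MD-2 that binds lipopolysaccharide, stood at 15.8, 13.7 and 13.2 FPKM in HBSS and 9.79, 10.8 and 11.4 FPKM at 100 µM (log2 difference −0.38, SE 0.081, adjusted p = 0.0564). Its partner receptor protein Cd14 lay the other way, at 303, 323 and 310.5 FPKM in HBSS and 339, 354 and 365 FPKM at 100 µM (adjusted p = 0.0729), and so did the adaptor Myd88, at 22.5 ± 1.29 and 25.8 ± 0.959 FPKM (adjusted p = 0.0668). Tlr1 and Tlr2 overlapped, at 6.601 ± 0.457 and 5.71 ± 0.436 FPKM and 46.2 ± 2.47 and 46.5 ± 1.85 FPKM.

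The lectin Mgl2, a galactose-binding receptor of macrophages and dendritic cells chosen after its values were seen, rose 1.32-fold, at 17.2, 18.1 and 15.6 FPKM in HBSS and 23.1, 22.2 and 21.9 FPKM at 100 µM (log2 difference 0.39, SE 0.063, adjusted p = 0.0491). Of the list of macrophage surface and phagocytic receptors, none of 25 passed (7 at an unadjusted p under 0.05). Clec4d, a lectin that recognises fungal and mycobacterial glycolipids, stood at 194, 204 and 189 FPKM in HBSS and 229, 245 and 241 FPKM at 100 µM (adjusted p = 0.0525). Fcgr3, an antibody receptor, stood at 31.1, 29.1 and 27.8 FPKM in HBSS and 35.6, 35.4 and 37.6 FPKM at 100 µM (adjusted p = 0.0564). Lyz2, lysozyme, gave 2155 ± 137 and 2716 ± 189.8 FPKM (adjusted p = 0.0564), a difference of 0.33. After quantile normalization it was 0, the value that setting gives any gene whose rank is the same in all libraries. That 0 therefore does not measure a difference in level. Adgre1, an adhesion receptor of macrophages, and Cd68, an endosomal glycoprotein, overlapped, at 7.997 ± 1.26 and 7.54 ± 0.302 FPKM and 834 ± 19.3 and 871 ± 50.97 FPKM.

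Of 21 tested p53 targets and GADD45 genes 1 passed, Gadd45g, with 10 higher and 11 lower in mean. Of 19 tested cyclins, inhibitors and E2F factors of G1 1 passed, Cdkn1b, with 9 higher and 10 lower. Gadd45g, a stress-induced growth arrest gene, rose 2.06-fold, the largest fold of any protein-coding gene that rose, at 2.75, 2.53 and 2.099 FPKM in HBSS and 5.39, 5.38 and 4.41 FPKM at 100 µM (log2 difference 0.81, SE 0.11, adjusted p = 0.0431). Its 20 µM libraries stood at 2.96, 3.83 and 3.97 FPKM. Other p53-linked genes did not pass: Ccng1, cyclin G, stood at 50.8, 56.4 and 56.6 FPKM in HBSS and 66.3, 71.01 and 68.1 FPKM at 100 µM (log2 difference 0.32, SE 0.056, adjusted p = 0.0504). Cdkn1a, the inhibitor p21, stood at 33.5, 35.5 and 34.4 FPKM in HBSS and 39.1, 39.97 and 43.1 FPKM at 100 µM (adjusted p = 0.0617), and Mdm2, which targets p53, overlapped at 29.6 ± 2.798 and 27.9 ± 1.17 FPKM. Btg2, an antiproliferative gene, lay lower at 12.3 ± 0.402 and 10.1 ± 1.26 FPKM (adjusted p = 0.0749). Cdkn1b, the cyclin kinase inhibitor p27, fell 1.42-fold, at 13.2, 14.8 and 14.96 FPKM in HBSS and 11.3, 9.85 and 8.99 FPKM at 100 µM (log2 difference −0.47, SE 0.08, adjusted p = 0.0491). Skp2, the ubiquitin ligase subunit that directs p27 to the proteasome, fell as well, at 7.53, 8.54 and 8.601 FPKM in HBSS and 6.39, 6.14 and 6.31 FPKM at 100 µM (log2 difference −0.34, SE 0.056, adjusted p = 0.0491); it was picked after its values were seen. Sertad1, a regulator of cyclin D kinase and E2F, rose 1.41-fold, at 5.53, 5.54 and 6.06 FPKM in HBSS and 7.83, 7.68 and 8.61 FPKM at 100 µM (log2 difference 0.43, SE 0.056, adjusted p = 0.0431).

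The linker histone gene Hist1h1c rose 1.37-fold, at 32.5, 29.8 and 28.7 FPKM in HBSS and 43.9, 40.9 and 40.3 FPKM at 100 µM (log2 difference 0.45, SE 0.057, adjusted p = 0.0431). Among 11 tested histone genes it alone passed, and 8 were higher and 3 lower. Hist1h4i, a core histone gene, stood at 2.51, 1.45 and 1.66 FPKM in HBSS and 2.92, 4.19 and 3.74 FPKM at 100 µM (adjusted p = 0.0564), and H1f0, the other linker histone named, overlapped at 231 ± 13.9 and 217 ± 8.92 FPKM. Genes of DNA replication mostly stood higher, 37 of 42, with a median of 0.12, and none was called. Of the 42, 11 had an unadjusted p under 0.05 by limma, a smaller share than the 33.1% of all genes. In 12 the groups were free of overlap, all high, against 16.9% of all genes. Pcna, the sliding clamp, stood at 194, 228 and 228 FPKM in HBSS and 251, 279 and 266 FPKM at 100 µM (adjusted p = 0.0709). Rfc2, a subunit of its loader, stood at 11.97 ± 0.737 and 14.5 ± 0.765 FPKM (adjusted p = 0.0636). Mcm2 and Mcm3, helicase subunits, overlapped at 58.2 ± 3.58 and 59.8 ± 1.59 FPKM and 105 ± 8.57 and 114 ± 3.74 FPKM, and the sign of Mcm2 turned with quantile normalization, with library weights and without HBSS replicate 1. HBSS replicate 1 lay below the other HBSS libraries over this list, at a median of −0.154 from the HBSS mean, against 0.0785 and 0.0768 in replicates 2 and 3.

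Death genes showed no common direction. Of 22 tested BCL2 family and apoptosis genes none passed (12 at an unadjusted p under 0.05), and 12 were higher and 10 lower. Bbc3, the BH3-only protein PUMA, stood at 10.6, 9.64 and 9.82 FPKM in HBSS and 7.23, 6.37 and 7.64 FPKM at 100 µM (log2 difference −0.45, SE 0.085, adjusted p = 0.0541). Bax, the pore-forming effector, stood at 49.3, 50.8 and 52.8 FPKM in HBSS and 57.1, 63.1 and 63.002 FPKM at 100 µM (adjusted p = 0.0564). Bcl2 gave 10.1 ± 1.84 and 7.18 ± 1.47 FPKM (adjusted p = 0.124) and Bcl2l1 58.4 ± 3.09 and 59.4 ± 1.58 FPKM. Of 16 genes of inflammasomes and lytic death none passed (3 at an unadjusted p under 0.05). Ninj1, which ruptures the membrane of dying cells, stood at 48.9, 54.5 and 46.8 FPKM in HBSS and 61.2, 64.9 and 63.1 FPKM at 100 µM (log2 difference 0.33, SE 0.058, adjusted p = 0.0504). Ripk3, the kinase of necroptosis, stood at 20.1, 21.9 and 21.7 FPKM in HBSS and 24.9, 26.4 and 25.9 FPKM at 100 µM (log2 difference 0.27, SE 0.052, adjusted p = 0.0541). Nlrp3 gave 14.9 ± 0.803 and 16.7 ± 1.07 FPKM (adjusted p = 0.157).

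Nuclear-encoded subunits of the respiratory chain were higher nearly throughout, each by a small amount. Of 36 complex I subunits 35 were higher, and of 39 subunits of complexes II to V all 39, but 0 passed in either list by limma (25 and 31 at an unadjusted p under 0.05). The groups were free of overlap in 17 and 27 of them on the high side (16.9% of all genes) and in none on the low side (17.8%). Ndufb6, of complex I, stood at 74.5, 76.2 and 73.5 FPKM in HBSS and 85.2, 88.2 and 96.3 FPKM at 100 µM (adjusted p = 0.0564). Sdhb, the iron-sulfur subunit of complex II, stood at 46.8, 48.6 and 45.8 FPKM in HBSS and 53.2, 53.9 and 52.4 FPKM at 100 µM (adjusted p = 0.0629). Ndufa1 and Ndufa2 gave 59.3 ± 5.87 and 68.97 ± 4.22 FPKM and 87.3 ± 6.74 and 103 ± 7.82 FPKM, and Sdha 62.5 ± 1.42 and 66.03 ± 1.73 FPKM. These are mostly short transcripts: the medians of 0.18 and 0.17 were 0.07 and 0.09 with the length trend removed, and 0.11 and 0.08 after quantile normalization.

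The 13 genes encoded in the mitochondrial genome did not share that direction, with 5 higher, 8 lower and none called (2 at an unadjusted p under 0.05). A pair of the abundant members, subunits of complex I, overlapped between groups, mt-Nd1 at 5266 ± 192 and 5081 ± 510.2 FPKM and mt-Nd2 at 3248 ± 217 and 2888 ± 258 FPKM (the signs of both turned with the GC trend removed). mt-Co3, a subunit of complex IV, stood apart at 67.1, 64.4 and 56.5 FPKM in HBSS and 114, 111 and 174 FPKM at 100 µM (log2 difference 1.04, SE 0.33, adjusted p = 0.0846). The 20 µM libraries stood at 58.5, 73.9 and 158 FPKM. Of the 33 proteasome subunits 31 were higher, none called (20 at an unadjusted p under 0.05), with a median of 0.13 and of 0.04 after quantile normalization. Psma7, of the core particle, stood at 91.9, 97.8 and 90.7 FPKM in HBSS and 106, 112 and 111 FPKM at 100 µM (log2 difference 0.23, SE 0.042, adjusted p = 0.0525), and Psma1 and Psma2 at 75.9 ± 3.54 and 83.2 ± 2.99 FPKM and 38.6 ± 2.38 and 41.8 ± 3.31 FPKM.

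Mitophagy genes, which the title of the series concerns, were split in direction. Of 30 tested receptors and Pink1 pathway members none passed by limma and 7 had an unadjusted p under 0.05; 16 were higher and 14 lower, 5 were free of overlap on the high side and 3 on the low side, shares no larger than the 16.9% and 17.8% of all genes, and the median of 0.013 turned to −0.012 after quantile normalization and was below 0 as well without HBSS replicate 3 or HOCl 100 µM replicate 1. Pink1, the kinase that marks damaged mitochondria, overlapped at 5.85, 4.35 and 4.13 FPKM in HBSS and 5.81, 4.96 and 5.51 FPKM at 100 µM (log2 difference 0.16, SE 0.11, adjusted p = 0.304), and the 95% interval of its difference ran from −0.08 to 0.41. Fkbp8, a receptor of the outer membrane, stood at 56.96, 59.2 and 56.1 FPKM in HBSS and 62.6, 65.5 and 66.6 FPKM at 100 µM (adjusted p = 0.0615). Fis1, which acts in fission, stood at 18.995, 20.6 and 19.5 FPKM in HBSS and 21.03, 25.7 and 24.1 FPKM at 100 µM (adjusted p = 0.0758). Among 35 autophagosome genes, none of which passed (9 at an unadjusted p under 0.05), Map1lc3b, an LC3 protein, gave 8.56 ± 0.355 and 9.87 ± 0.145 FPKM (adjusted p = 0.0703) and Gabarap, its relative, 91.7 ± 3.26 and 102 ± 3.61 FPKM (adjusted p = 0.0691). The scaffolds lay lower: Wdfy3 at 12.9, 10.8 and 11.6 FPKM in HBSS and 9.94, 6.75 and 6.97 FPKM at 100 µM (adjusted p = 0.0672) and Rb1cc1 at 4.53, 4.29 and 4.21 FPKM in HBSS and 3.79, 3.25 and 3.36 FPKM at 100 µM (adjusted p = 0.0672). Both have long transcripts, and with the length trend removed their differences were −0.35 and −0.08. Ulk1 and Ulk2, the initiating kinases, overlapped at 2.54 ± 0.0941 and 2.402 ± 0.113 FPKM and 7.69 ± 0.5095 and 7.06 ± 0.581 FPKM.

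**Figure D3:**
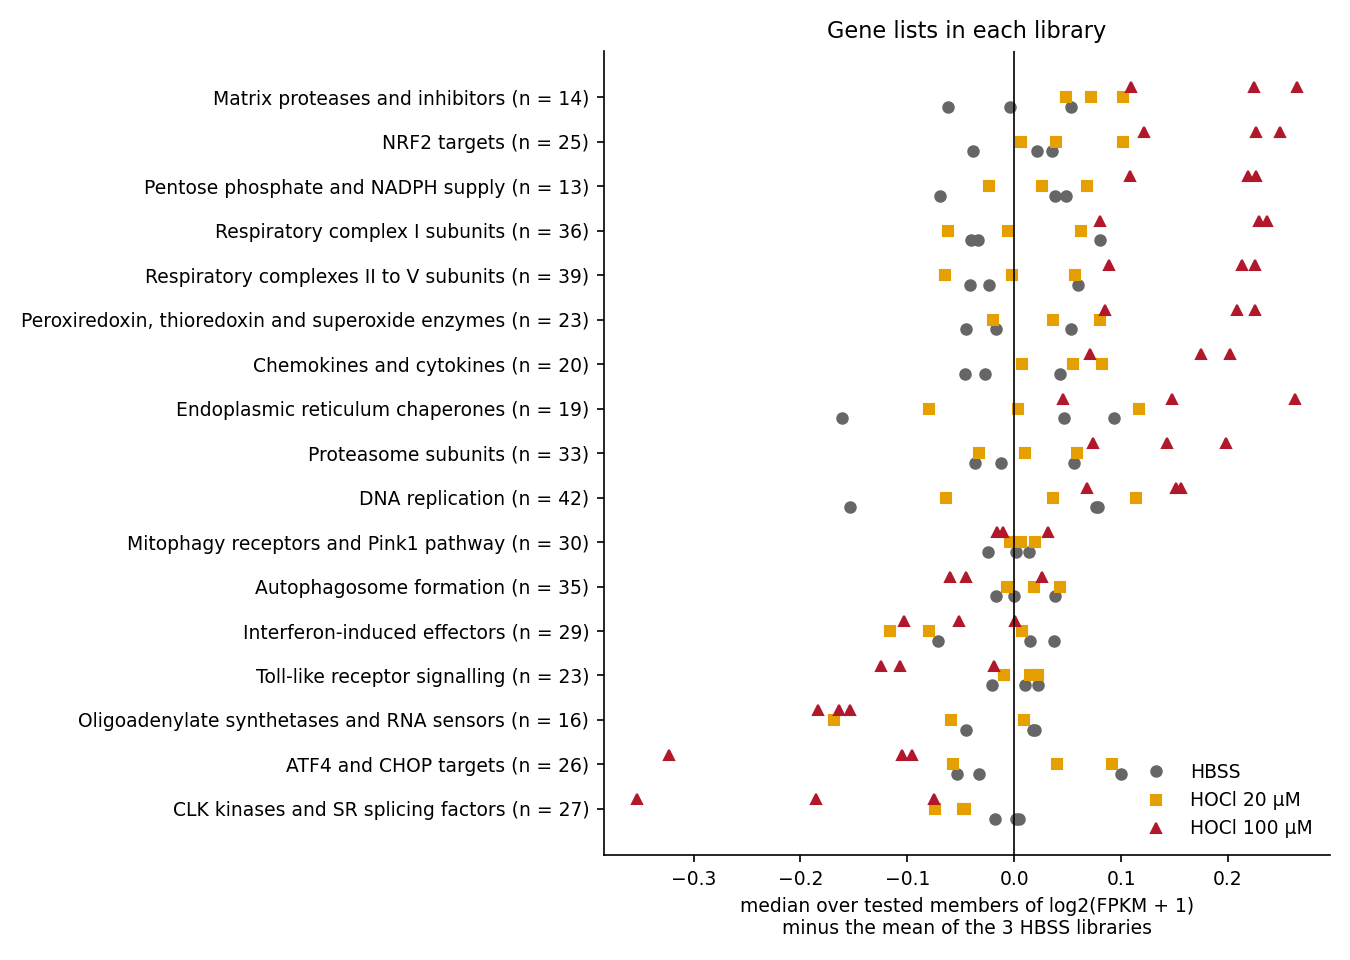
Each point is 1 library, placed by the median over the tested members of a gene list of log2(FPKM + 1) minus the mean of the 3 HBSS libraries (x axis); rows are lists with their number of tested genes. HBSS is in grey circles, HOCl 20 µM in orange squares and HOCl 100 µM in red triangles. In the row of NRF2 targets all 3 red triangles lie right of every other library, and in the mitophagy row the 3 groups lie within 0.0319 of 0.

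Splicing regulators mostly stood lower, and 1 of them fell. Clk1, the kinase that phosphorylates SR splicing factors, fell 1.43-fold, at 11.6, 12.8 and 12.03 FPKM in HBSS and 9.23, 8.27 and 7.95 FPKM at 100 µM (log2 difference −0.48, SE 0.059, adjusted p = 0.0431). The 20 µM libraries stood at 10.2, 10.3 and 10.6 FPKM. Of 27 tested CLK and SR genes it alone passed, while 21 were lower and 6 higher, 13 were free of overlap on the low side and 1 on the high side (17.8% and 16.9% of all genes), and the median of −0.24 was −0.13 with the length trend removed. Clk2 overlapped at 10.6 ± 0.644 and 8.88 ± 0.988 FPKM. Rbm5, a splicing regulator, stood at 7.94, 7.74 and 8.02 FPKM in HBSS and 6.599, 5.93 and 5.71 FPKM at 100 µM (log2 difference −0.33, SE 0.058, adjusted p = 0.0504). Tra2a, an SR-like factor, stood at 29.4, 28.6 and 28.8 FPKM in HBSS and 25.5, 25.3 and 22.4 FPKM at 100 µM (adjusted p = 0.0581). Ddx17, an RNA helicase, stood at 47.02, 47.6 and 48.5 FPKM in HBSS and 41.1, 33.1 and 26.9 FPKM at 100 µM (adjusted p = 0.0672). In the CLK and SR list HOCl 100 µM replicate 3 lay lowest, at a median of −0.353 against −0.0749 and −0.185 in replicates 1 and 2.

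Neat1, the noncoding RNA that builds paraspeckles, fell 2.099-fold, at 9.36, 11.7 and 10.7 FPKM in HBSS and 6.65, 4.81 and 3.67 FPKM at 100 µM (log2 difference −0.96, SE 0.16, adjusted p = 0.0491). Its 20 µM libraries, at 6.98, 6.91 and 6.31 FPKM, were below all HBSS libraries and overlapped the 100 µM ones. Malat1, the neighbouring nuclear noncoding RNA, spread widely in both groups, at 258, 189 and 147 FPKM in HBSS and 204, 134 and 94.03 FPKM at 100 µM (adjusted p = 0.304). The groups of Malat1 overlapped. Of 9 tested nuclear noncoding RNAs Neat1 alone passed, and 5 were higher and 4 lower.

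Zinc finger genes, grouped after their values were seen as those named Zfp or Zkscan, were lower in 211 of 250 and higher in 39. In 120 the groups were free of overlap on the low side and in 4 on the high side, against 17.8% and 16.9% of all genes, and the median was −0.17 (−0.15 with the length trend removed and −0.12 after quantile normalization). The 5 that were called all fell. Zfp217, a zinc finger transcription factor, stood at 8.03, 8.87 and 9.67 FPKM in HBSS and 6.43, 6.25 and 5.52 FPKM at 100 µM (log2 difference −0.48, SE 0.076, adjusted p = 0.0491). Zkscan3, a repressor of autophagy and lysosome genes, stood at 5.301, 5.21 and 5.05 FPKM in HBSS and 4.09, 3.52 and 3.55 FPKM at 100 µM (log2 difference −0.39, SE 0.066, adjusted p = 0.0491), and Zfp420, Zfp930 and Zfp942 had differences of −0.46, −0.33 and −0.43. Of the 37 tested lysosome and TFEB genes none passed (8 at an unadjusted p under 0.05), and their median of 0.04 turned to −0.04 after quantile normalization.

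Among called genes that averaged 5 FPKM or more, the 12 largest falls also held Notch2, a receptor of cell contact, and Itga9. Notch2 stood at 7.69, 7.39 and 7.68 FPKM in HBSS and 6.28, 5.52 and 5.49 FPKM at 100 µM (log2 difference −0.35, SE 0.059, adjusted p = 0.0491). Itga9, an integrin subunit, stood at 7.88, 7.36 and 7.49 FPKM in HBSS and 5.96, 5.42 and 5.86 FPKM at 100 µM (log2 difference −0.35, SE 0.049, adjusted p = 0.0431). The noncoding gene 1700020I14Rik stood at 8.35, 9.24 and 9.297 FPKM in HBSS and 7.04, 6.54 and 6.26 FPKM at 100 µM (adjusted p = 0.0491). ENSMUSG00002075973, an ID without a symbol, stood at 9.93, 10.1 and 8.79 FPKM in HBSS and 3.99, 3.52 and 3.33 FPKM at 100 µM (log2 difference −1.20, SE 0.16, adjusted p = 0.0431). Of the genes that rose, Khk, the kinase that starts fructose use, stood at 8.99, 9.52 and 8.25 FPKM in HBSS and 12.01, 12.7 and 11.5 FPKM at 100 µM (log2 difference 0.40, SE 0.058, adjusted p = 0.0432). Rps12, a ribosomal protein, stood at 85.4, 96.4 and 85.1 FPKM in HBSS and 117, 112 and 124 FPKM at 100 µM (log2 difference 0.40, SE 0.059, adjusted p = 0.0432). Named after their values were seen, Hlx, a homeobox factor, rose from 8.04, 8.46 and 8.51 FPKM in HBSS to 10.8, 10.9 and 11.1 FPKM at 100 µM (log2 difference 0.35, SE 0.039, adjusted p = 0.0431), Car2, a carbonic anhydrase, from 18.5, 19.9 and 19.2 FPKM in HBSS to 22.7, 24.5 and 24.2 FPKM at 100 µM (log2 difference 0.30, SE 0.049, adjusted p = 0.0491), and Aurkaip1, a mitochondrial ribosome protein, from 21.6, 22.3 and 20.9 FPKM in HBSS to 25.98, 27.5 and 27.7 FPKM at 100 µM (log2 difference 0.31, SE 0.041, adjusted p = 0.0431). Of those 3, Hlx stayed called in 18 of the 27 alternatives, Car2 in 12 and Aurkaip1 in 14.

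The differences between 100 µM and HBSS went with transcript length and type, and so did differences between libraries of the same group. Of the 26 genes that rose, 9 were processed pseudogenes, intronless copies of other genes that share reads with their parents, and 17 were protein coding. They included Gm7332 at 4.01, 5.54 and 5.75 FPKM in HBSS and 10.5, 12.2 and 14.1 FPKM at 100 µM (log2 difference 1.12, SE 0.16, adjusted p = 0.0431) and Rps15a-ps3, a ribosomal protein pseudogene, at 7.57, 8.405 and 6.995 FPKM in HBSS and 13.2, 12.7 and 15.1 FPKM at 100 µM (log2 difference 0.76, SE 0.13, adjusted p = 0.0491). Also named by size are Gm10240, Gm6278, Gm5805, Gm13509 and Gm7887, with differences of 0.68, 0.50, 0.49, 0.44 and 0.44. Over all 901 tested processed pseudogenes 714 were higher, and the median was 0.23 (0.06 with the length trend removed). Of them 37.3% were free of overlap on the high side and 2.55% on the low side, against 16.9% and 17.8% of all genes. The 91 with ribosomal protein names had a median of 0.43 and 57 free of overlap, all on the high side (62.6%, against 16.9% of all genes). Of 50 tested ribosomal protein genes themselves, 47 were higher and Rps12 alone passed, and the median of 0.13 turned to −0.011 after quantile normalization.

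The differences of protein-coding genes ran with their exon length. The median difference was 0.15 in the 220 genes of up to 1000 bases of exon, 0.13 in the 1020 of over 1000 to 2000, 0.05 in the 2966 of over 2000 to 4000, −0.05 in the 3810 of over 4000 to 8000 and −0.14 in the 1712 longer ones. In the longest class 38.7% were free of overlap on the low side and 2.98% on the high side, against 17.8% and 16.9% of all genes. HOCl 100 µM replicates 2 and 3 lay farthest of their group from HBSS, with medians in the shortest class of 0.209 and 0.198 against 0.0688 in replicate 1. HBSS replicate 2 and HOCl 20 µM replicate 3 ran the same way, at 0.066 and 0.073 in the shortest class. In the longest class they lay at −0.033 and −0.037, against −0.047 in HOCl 100 µM replicate 1. Cell media replicates 1 and 2, which had no HOCl, lay farther out in the same direction, at 0.626 and 0.762 in the shortest class and −0.456 and −0.512 in the longest, while cell media replicate 3 lay at −0.0327 and 0.0562. With each library's length trend removed, 24 genes were called, 6 higher and 18 lower, among them 18 of the 63. All 61 of the 63 with a known length kept their sign. The part of transcript length in the differences of single genes was not tested beyond that.

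**Figure D4:**
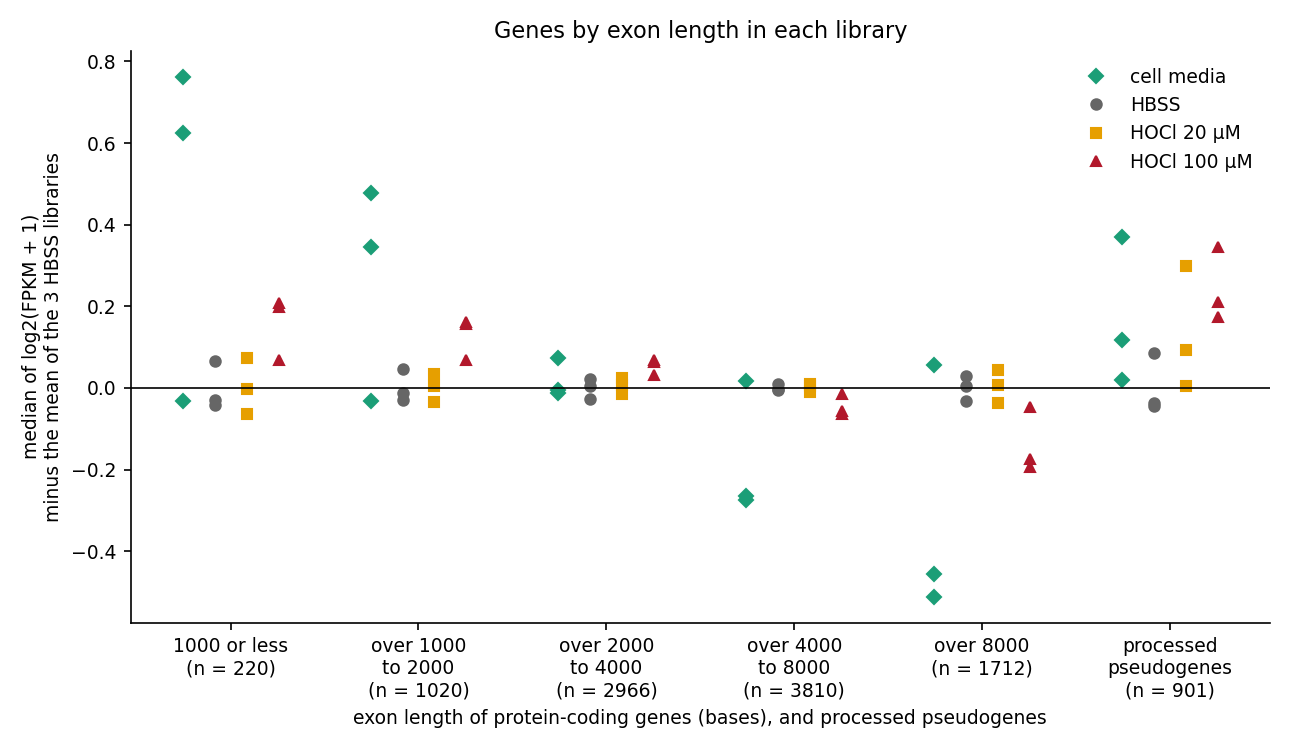
Each point is 1 library, placed by the median over the protein-coding genes of an exon length class, or over processed pseudogenes, of log2(FPKM + 1) minus the mean of the 3 HBSS libraries (y axis). Cell media is in green diamonds, HBSS in grey circles, HOCl 20 µM in orange squares and HOCl 100 µM in red triangles. The 100 µM libraries run from above 0 in short genes to below 0 in long ones, and cell media replicates 1 and 2 do so over a wider range. HBSS replicate 2 and HOCl 20 µM replicate 3 also run this way, over a range near that of HOCl 100 µM replicate 1.

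Set directly against the 20 µM libraries, no gene passed at 100 µM by limma, with a smallest adjusted p of 0.0927 and 3113 genes (26.9%) at an unadjusted p under 0.05. Without HOCl 100 µM replicate 1 the count was 1923. The comparisons of each dose with HBSS share the HBSS libraries, so only values are set side by side. The 26 genes that rose had a median difference from HBSS of 0.43 at 100 µM and 0.18 at 20 µM, and the 37 that fell of −0.43 and −0.12. These genes were picked by their difference at 100 µM, so smaller medians at 20 µM can follow from that choice alone. No dose trend is read from them. Among lists, the NRF2 targets stood at 0.20 and 0.04, the ATF4 and CHOP targets at −0.17 and 0.017, and the oligoadenylate synthetases and RNA sensors at −0.16 and −0.08.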

How the data were processed

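RNA of 12 mouse J774A.1 libraries, 3 in each of 4 groups, was sequenced as mRNA. The authors deposited 1 table of FPKM values; the submitters' processing notes name HISAT2, featureCounts and GRCm39, and versions, annotation, strand setting and how multi-mapping reads were treated are not given in the sources used here. FPKM depends on the exon length that the authors used and on the sum over all genes. Genes with at least 1 FPKM in at least 3 of the 6 HBSS and HOCl 100 µM libraries were kept. Differences were fitted with limma 3.58.1 (R 4.3.3) on log2(FPKM + 1), with a mean for each of HBSS, HOCl 20 µM and HOCl 100 µM (9 libraries) and a mean-variance trend; tests were two-sided, Benjamini-Hochberg adjusted over all 11558 genes, at a threshold of 0.05. A fold is the ratio of mean FPKM, and a difference on the log2(FPKM + 1) scale understates the change of low genes.

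Low FPKM values were whole multiples of 1 read (98.26% of values within 0.01 of a whole number), which gave 17683937 to 21408518 reads behind the 12 libraries. That depth was read with GENCODE M21 exon lengths, not with lengths given by the authors. GENCODE M21 symbols, exon lengths and GC (GRCm38) were matched by gene ID for 11464 of the 11558 genes. Promoter windows came from RefSeq (GRCm38.p6), matched by symbol. The fit was tested on simulated data before use.

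The members, the gene lists and the choice of 9 libraries were made with earlier results of these data known. Named genes were the 12 largest rises and the 12 largest falls of the called ones that averaged 5 FPKM or more over the 6 libraries and had groups without overlap, and in each list the first 2 genes with up to 5 of the smallest p. Not every gene this rule gives is printed, and others are said to be chosen after their values were seen. Alternatives changed the libraries, pseudocount, filter, scaling, block, trend, weights, length and GC trends, and the count model. Of the fits, cell media libraries entered only the alternatives on all 12 libraries and on 10 (without cell media replicates 1 and 2).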

Additional observations from a re-analysis of the deposited data

Results flagged for a closer look

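Ddit3, the gene of the stress factor CHOP, was far higher in the cell media group, which is not in the main fit, than in the HBSS control. The cell media libraries stood at 55.7, 47.3 and 49.0 FPKM, with a mean of 50.7 FPKM, against 26.5, 24.0 and 22.6 FPKM in HBSS, 26.6, 22.2 and 19.6 FPKM at 20 µM HOCl and 16.1, 14.2 and 15.7 FPKM at 100 µM HOCl. It was picked out because the cell media level lay above that of the controls. Cell media replicates 1 and 2 also stand apart in transcript length, while replicate 3 does not, and all 3 lay above every other library for Ddit3. No test was made of it.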

How the results depend on the processing

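The sign of all 63 called genes held in each of the 27 alternatives that held the gene. For many alternatives this was fixed in advance, as these genes have groups without overlap or the setting leaves the difference itself unchanged. The number of called genes did not hold. It was 2 with HBSS and 100 µM alone, 0 with all 12 libraries (limma, 899 at an unadjusted p under 0.05), 33 at a pseudocount of 0.5, 6 with no filter, 229 at a mean of at least 5 FPKM, 2 after quantile normalization, 26 without the mean-variance trend, 3499 with library weights (which gave HOCl 20 µM replicate 2 a weight of 20.03 against 0.3128 to 1.834 for the others), 24 with the length trend removed, 792 by limma-voom on recovered reads, and 94 with median-of-ratios scaling. Leaving out 1 library gave 0 to 2696, and of the alternatives a called gene stayed called in 9 to 18. The 63 calls were 41.3% higher, and this share was 25% with the length trend removed. The share of genes without overlap was 39.03% to 59.86% without single libraries, highest without HOCl 100 µM replicate 1. Leaving out a library can only keep this share at 34.7% or raise it, so the rise itself is no result. Against 20 µM the count was 0 to 1923 without single libraries (2 without HBSS replicate 1 or 3). With the replicate block 3036 genes were called on 9 libraries, 1031 on 6 and 2137 against 20 µM; added after seeing the data, the block with quantile normalization gave 2497 and with the length trend removed 2011. Whether libraries of the same number belong together is not given in the labels, so the block stayed an alternative. Deviations of same-numbered HBSS and 100 µM libraries were correlated at 0.2982, 0.0968 and −0.0296. For 20 µM and 100 µM libraries the values were 0.4061, 0.0471 and 0.424, and for HBSS and 20 µM 0.3925, −0.038 and 0.1298. Not every library correlated best with its own number, and so few libraries cannot settle whether they are paired. Of 585 list medians under alternatives 63 moved beyond the spread of libraries. Uncalled genes with differences near 0 turned sign. With the GC trend removed these were Bcl2l1 −0.007, Ifit2 0.042, Ifnar2 −0.0091, mt-Nd1 0.1007 and mt-Nd2 0.0138. With the length trend removed they were Ccl3 −0.1289, Cd68 −0.0662, Ifnar2 −0.0224, Tlr2 −0.0287 and Ulk1 0.0116. With library weights they were H2-K1 0.0047, Ifnar2 −0.0264, Mcm2 −0.0101 and Tlr2 −0.0177. With quantile normalization they were Bcl2l1 −0.044, Ccl3 −0.1105, Cd68 −0.0052, H2-D1 −0.0352, Hsp90b1 −0.0527, Ifit2 0.0145, Ifnar2 −0.002, Mcm2 −0.0291 and Tlr2 −0.0698. There mt-Nd1 was 0, which is no turn of sign. The values were the same under the block where it was run. Without single libraries, in parentheses those that turned the sign, the ranges were Adgre1 −0.1778 to 0.0253 (HBSS replicate 3), Bcl2l1 −0.005 to 0.0675 (HBSS replicate 3), Ccl3 −0.0225 to 0.1069 (HBSS replicate 3, HOCl 100 µM replicate 3), H2-K1 −0.1294 to 0.0084 (HOCl 100 µM replicate 1), Hsp90b1 −0.0145 to 0.1236 (HBSS replicate 1), Ifit2 −0.083 to 0.0102 (HOCl 100 µM replicate 1), Ifnar2 −0.0502 to 0.0367 (HBSS replicate 3, HOCl 100 µM replicate 1, HOCl 100 µM replicate 3), Mcm2 −0.0099 to 0.0732 (HBSS replicate 1), Tlr2 −0.0208 to 0.052 (HBSS replicate 1, HBSS replicate 2, HOCl 100 µM replicate 3), mt-Nd1 −0.1307 to 0.013 (HOCl 100 µM replicate 1). Low FPKM limits the precision of genes near 1, and the HOCl 100 µM libraries had fewer reads than all HBSS libraries.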

Other observations

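Glycolysis and heat shock genes belong to no comparison above. Of 22 tested glycolysis and glucose uptake genes none passed by limma (14 at an unadjusted p under 0.05), 15 were higher and 7 lower, and 10 were free of overlap on the high side and 3 on the low side (16.9% and 17.8% of all genes), with a median log2 difference of 0.09. Of 15 cytosolic heat shock genes none passed (3 at an unadjusted p under 0.05), 13 were higher and 2 lower, with a median of 0.13 and of 0.04 after quantile normalization. The 23 cholesterol synthesis and uptake genes held no call (7 at an unadjusted p under 0.05), with 16 higher, 7 lower and a median of 0.015.

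Among genes near the level filter, 277 reached 1 FPKM in exactly 3 of the 6 libraries, with a median mean of 1.01 FPKM, and 312 reached it in 2 and were left out, with a median mean of 0.875 FPKM. In 83 genes the filter was passed through 1 group alone, and 6 of those are among the 63 called. Gm37689, ENSMUSG00002076820, Mir3473d, Gm43890 and Gm13421 reached 1 FPKM in HBSS but in no 100 µM library, and are counted as fallen. Atp5l-ps1 reached it at 100 µM but in no HBSS library, and is counted as risen. For these genes the filter fixed the direction and the lack of overlap, so neither is a result.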
